A study of Rattus norvegicus with 10 samples.

Results

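The heat shock proteins and their J-domain cochaperones were followed in the messenger RNA of fetal rat hearts. Members were all genes listed with a symbol that starts with Hspa, Hspb (without Hspbap), Hspd, Hspe, Hsph, Hsp90, Dnaja, Dnajb or Dnajc. The rule uses names and a minimum level, not how a gene moved, but it was set with earlier results of these data known. Of 18025 listed genes, 69 carried such a symbol and 66 of them reached the minimum, a mean level of 0.1 FPKM across all 10 libraries, as did 14542 genes in total. These 66 were 26 with an Hsp symbol and 40 J proteins. The 3 others, Dnajc5g, Dnajc6 and Hspb9, had means of 0.00322, 0.00873 and 0.0168 FPKM and were not tested. FPKM is the number of reads on a gene scaled to gene length and to the total reads of the library, so it can be compared between genes.

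The hearts were wild type and came from Sprague-Dawley fetuses at embryonic day 19.5, with 5 libraries from control pregnancies (CON) and 5 from pregnancies with maternal hyperglycemia (HG). Dams were 3 months old and received daily injections into the peritoneum for 3 days, of streptozotocin, which destroys insulin-producing cells, in citric acid buffer for HG and of the buffer alone for CON, and HG dams had a blood glucose above 16 mM at 7 days after injection. The sources place the injections both before pregnancy and after mating, so their timing is not settled here, and the labels do not give the sex of the fetuses. The labels do not tie fetuses to litters, so p-values measure the spread between these libraries, and the study's text speaks both of hearts and, for this assay, of isolated cardiomyocytes.

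Heat shock proteins bind unfolded or partly folded proteins. HSP70 proteins do so in cycles of ATP hydrolysis that J-domain proteins start and nucleotide exchange factors end, HSP90 proteins take over clients from HSP70, and small heat shock proteins hold unfolding proteins without ATP. Separate sets serve the cytosol, the mitochondria and the endoplasmic reticulum, and the heart, whose contractile proteins are folded and loaded continuously, is rich in small heat shock proteins. Heat shock factor 1 drives the cytosolic set through heat shock elements, and the unfolded protein response drives the endoplasmic reticulum set through endoplasmic reticulum stress elements.

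The recovered number of reads on genes was 17643998 to 18243926 in CON and 16676572 to 19114291 in HG. Cardiomyocyte markers were abundant in every library, with a summed level of 21515 to 22959 FPKM in CON and 18329 to 21925 FPKM in HG, and none was at 0. Library CON3 stood apart by liver transcripts: Alb, the serum albumin of hepatocytes, was at 34.9 FPKM there and at no more than 2.93 FPKM in the other CON libraries, and the 7 liver markers summed to 3.15 to 84.8 FPKM in CON and 1.33 to 2.60 FPKM in HG. Red cell markers summed to 61.7 to 112 FPKM in CON and 41.3 to 59.3 FPKM in HG. Values without CON3 are therefore given for the members on which the results turn.

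Of the 66 members, 25 were lower in HG, 7 were higher and 34 did not pass the test, so that 48.5% were called, against 40.1% of all genes tested (limma, Benjamini-Hochberg adjusted p under 0.05 over all 14542 genes). Lower members thus made up 37.9%, against 11.8% of all genes tested, and higher members 10.6%, against 28.4% of all genes. The median log2 fold change of HG against CON was -0.10 over the members and 0.09 over all genes. The groups did not overlap in 25 members, against 27.4% of all genes, of which 18 were at a lower level in HG, against 8.12%, and 7 at a higher one, against 19.3%. With median-of-ratios scaling, which moved the median of all genes to 0.01, 33 members were lower and 3 higher, against 17.5% and 15.6% of all genes. A log2 fold change under -0.5 was found in 11 of the lower members, against 4.0% of all genes. Only Hspa1b passed the study's threshold for a differentially expressed gene (DEG, log2 fold change beyond 1 either way with an adjusted p under 0.05), against 1.94% of all genes. In bulk libraries of heart tissue, fewer cells of a type and less RNA per cell cannot be told apart.

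**Figure D1:**
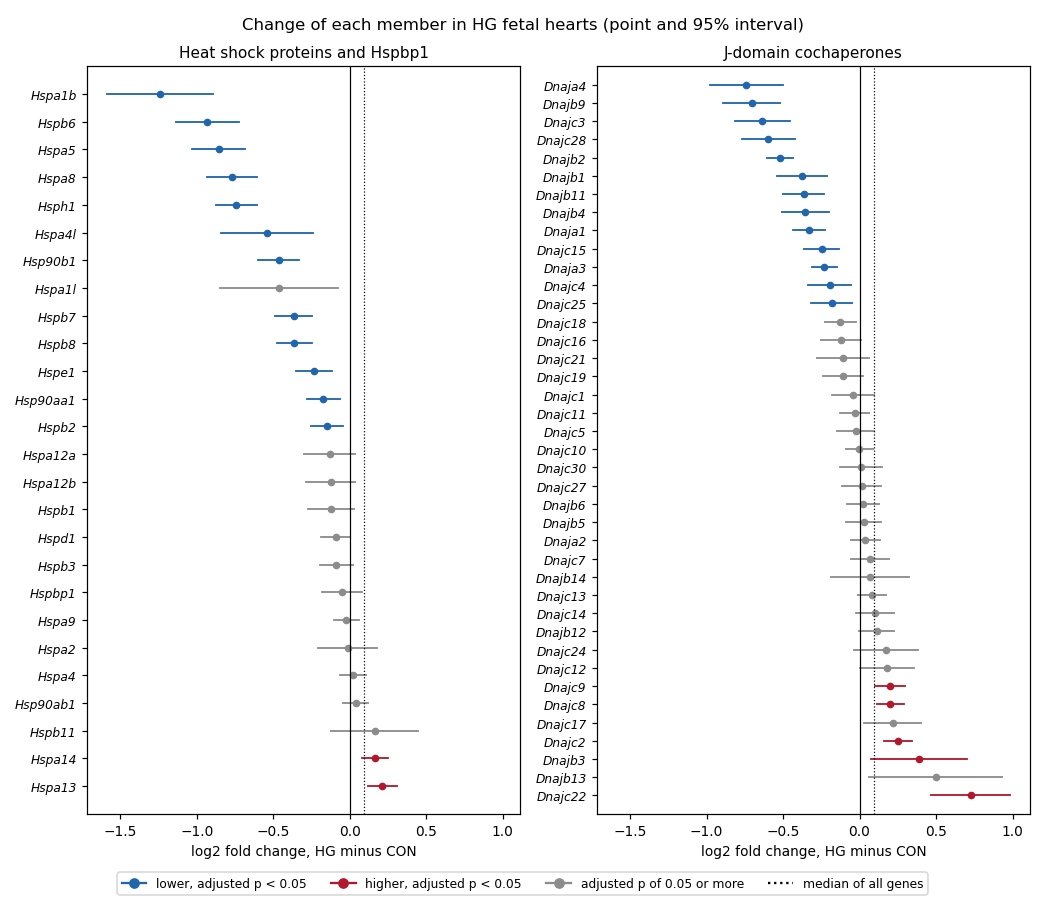
Log2 fold change (HG minus CON, horizontal axis) of the 66 members tested, 1 row per gene, with the 95% interval as a bar; blue members were lower and red ones higher at an adjusted p under 0.05, grey ones did not pass, and the dotted line is the median of all genes at 0.09. Blue rows number 25 and red rows 7, and Hspa1b lies farthest to the left at -1.24.

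The share of all FPKM held by members was 1.61 ± 0.0542% in CON but 1.35 ± 0.0311% in HG (SD, 5 libraries per group), with 1.55 to 1.69% in the CON libraries and 1.34 to 1.41% in the HG libraries. A large part of this lay in few genes: Hspb7, Hsp90ab1, Hspa8, Hspb1, Hspa5 and Hspd1 together held 59.6% of the members' FPKM. Among the 14 members that averaged 100 FPKM or more, 9 were lower (64.3%) and 0 higher in HG. Among the 52 below that level, 16 were lower (30.8%) and 7 higher (13.5%). Over all genes tested, at any level, 11.8% were lower and 28.4% higher. Shares of all genes above and below 100 FPKM were not computed, so a link to level was not tested.

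**Figure D2:**
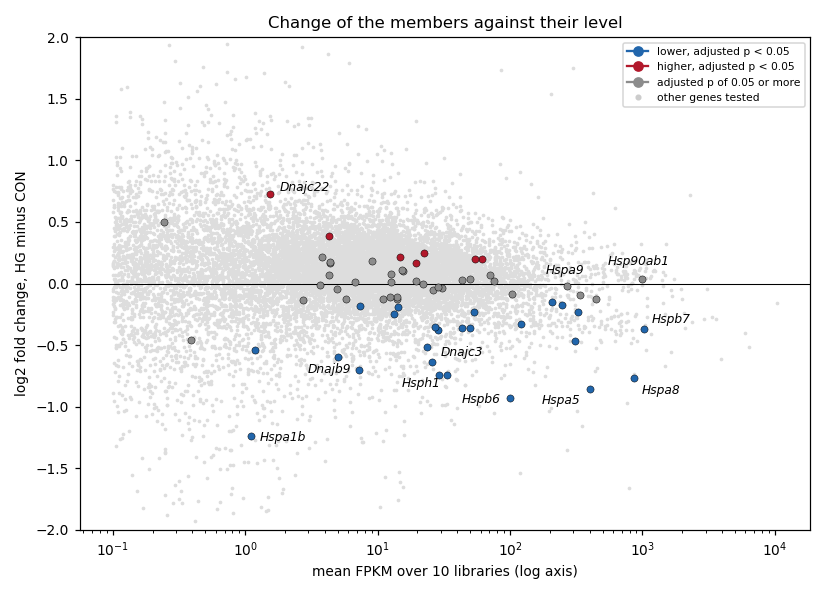
Log2 fold change (HG minus CON) against the mean FPKM over 10 libraries on a log axis, with members as outlined points coloured by the test and all other genes tested as grey dots; 30 of the 14542 genes lie beyond 2 on the vertical axis and are not drawn. Hspa8, Hspa5 and Hspb7 are lower at a high level, whereas Hsp90ab1 and Hspa9 lie near 0.

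Among cytosolic HSP70 and HSP110 proteins, 11 were tested, 4 were lower and 2 higher (36.4% and 18.2%, against 11.8% and 28.4% of all genes), and their median was -0.13 on the log2 scale (HG minus CON). Hspa8, the constitutive HSP70 of the cytosol that also uncoats clathrin vesicles, was at 1172, 922, 1213, 1107 and 1036 FPKM in CON1 to CON5 and at 620, 643, 717, 636 and 573 FPKM in HG1 to HG5. Each HG library lay below each CON library. Its mean was 1.71-fold lower in HG, a log2 fold change of -0.77 (SE 0.0762, adjusted p = 1.68e-05), and -0.73 without CON3. No other member lost as many FPKM: the mean went from 1090 ± 116 to 638 ± 52.1 FPKM (SD, n = 5).

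Hspa1b, a stress-inducible HSP70, was present at a low level, with 2.06, 1.504, 1.79, 1.49 and 1.15 FPKM in CON1 to CON5 and 0.634, 0.484, 0.527, 0.728 and 0.697 FPKM in HG1 to HG5. These values rest on 82 to 151 reads in a CON library and 36 to 52 reads in an HG library. The groups were apart, and the mean was 2.61-fold lower in HG (log2 fold change -1.24, SE 0.159, adjusted p = 9.86e-05; -1.19 without CON3). The row named Hspa1b carries NCBI Gene identifier 24472, which RefSeq names Hspa1a, and the RefSeq Hspa1b, identifier 108348108, is listed as LOC108348108 outside the members. That row, named here after its values were seen, was at 0.414 to 0.831 FPKM in CON and 0.0443 to 0.341 FPKM in HG, on 2 to 37 reads (log2 fold change -1.24, SE 0.275, adjusted p = 0.00357). These genes are near-identical copies, so the division of reads between them is uncertain. Their sum was 1.56 to 2.89 FPKM in CON and 0.528 to 0.974 FPKM in HG.

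HSP110 proteins exchange the nucleotide of HSP70. Hsph1, which is heat-inducible, was at 43.4, 44.9, 45.2, 41.6 and 35.8 FPKM in CON1 to CON5 and at 26.4, 23.6, 24.8, 24.6 and 26.3 FPKM in HG1 to HG5. The groups were apart, at a log2 fold change of -0.74 (SE 0.0622, adjusted p = 5.21e-06), and -0.71 without CON3. Hspa4l fell by 0.54 on the log2 scale (adjusted p = 0.00851) from a mean of only 1.41 FPKM in CON, and its groups overlapped. The third HSP110 gene, Hspa4, averaged 75.8 ± 1.94 FPKM in the CON libraries and 77.0 ± 3.97 FPKM in the HG libraries, with a 95% interval of the log2 fold change from -0.06 to 0.11.

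Hspa14 and Hspa13, both placed in this group although Hspa14 works at the ribosome and Hspa13 is a microsomal protein, were the higher members. Hspa14 was at 17.9 to 19.5 FPKM in CON and 20.04 to 21.6 FPKM in HG (log2 fold change 0.16, adjusted p = 0.00652). Its call was lost with median-of-ratios scaling (adjusted p = 0.219) and with quantile normalization (adjusted p = 0.134). Hspa13 was at 13.0 to 14.5 FPKM in CON and 15.2 to 16.5 FPKM in HG (log2 fold change 0.21, adjusted p = 0.00242).

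HSP90 carries kinases, receptors and myosin through the last steps of folding. Its constitutive cytosolic form, Hsp90ab1, was at 983, 1008, 1002, 960 and 918 FPKM in CON1 to CON5 and at 968, 1015, 994, 1045 and 975 FPKM in HG1 to HG5. The groups overlapped, although CON4 and CON5 lay below every HG library. The log2 fold change was 0.04 with a 95% interval of -0.05 to 0.12 (adjusted p = 0.475). With median-of-ratios scaling it was -0.05, and with quantile normalization it was 0.09 and called higher (adjusted p = 0.0258). No direction is therefore given. The inducible form, Hsp90aa1, was at 244 to 272 FPKM in CON and 215 to 257 FPKM in HG, so the groups overlapped (log2 fold change -0.17, SE 0.0498, adjusted p = 0.0149). Hsp90b1 is described with the endoplasmic reticulum.

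**Figure D3:**
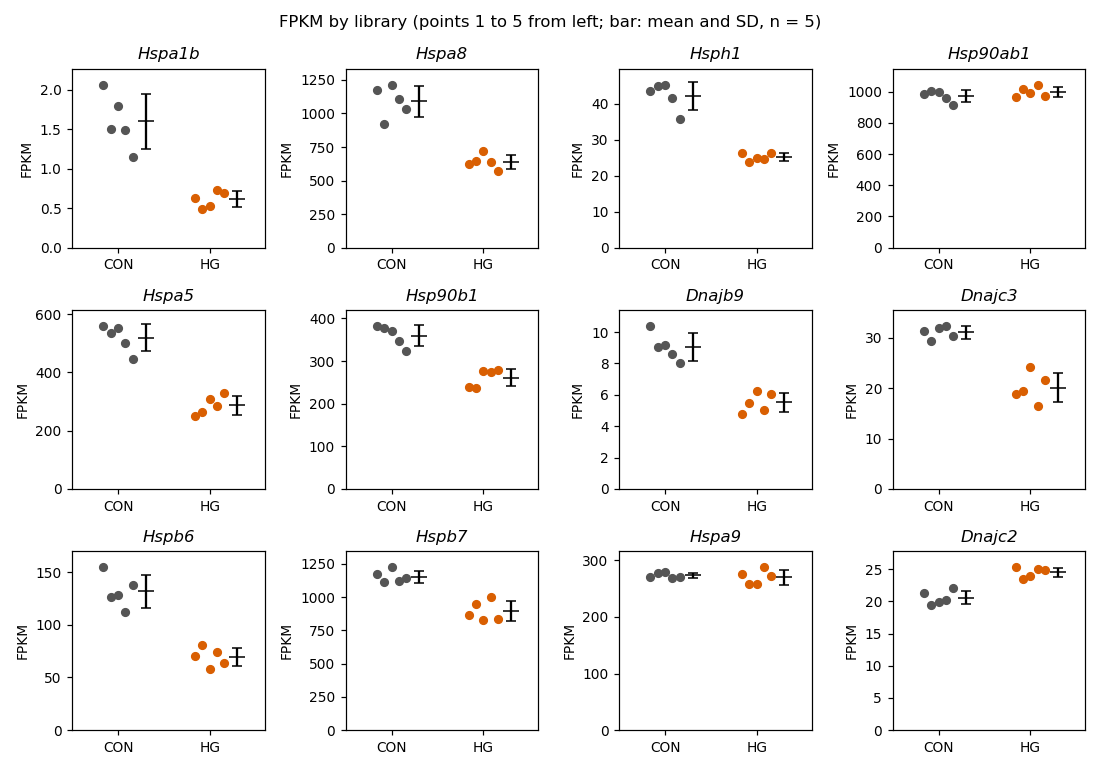
FPKM of 12 members in each library (points, replicates 1 to 5 from left to right) with the mean and SD of 5 libraries as a bar, CON in grey and HG in orange, each vertical axis starting at 0. In Hspa1b, Hspa8, Hsph1, Hspa5, Hsp90b1, Dnajb9, Dnajc3, Hspb6 and Hspb7 every HG library lies below every CON library, in Dnajc2 every HG library lies above, and in Hsp90ab1 and Hspa9 the groups overlap.

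The endoplasmic reticulum set comprised 11 members, of which 6 were lower (54.5%, against 11.8% of all genes), 0 were higher and 5 did not pass, with a median log2 fold change of -0.18. The lower members include the lumenal chaperone system itself. To show the element that the unfolded protein response uses, the 250 bases upstream of the annotated start of the 3 members that hold it are printed from RefSeq (build GRCr8), with each match in capitals. The element was searched as CCAAT, 9 bases of any kind and CCACG, on both strands, and it stands in 3 of the 53 members with a RefSeq promoter, 5.66%, and in 22 of all 33469 promoters, 0.0657%. A match is a description of the letters and not evidence that a factor binds there. Hspa5 lies at chr3:38452766-38453015, forward strand, Hsp90b1 at chr7:23012294-23012543, reverse strand, and Dnajc3 at chr15:102432417-102432666, forward strand, each read toward its gene.
Hspa5: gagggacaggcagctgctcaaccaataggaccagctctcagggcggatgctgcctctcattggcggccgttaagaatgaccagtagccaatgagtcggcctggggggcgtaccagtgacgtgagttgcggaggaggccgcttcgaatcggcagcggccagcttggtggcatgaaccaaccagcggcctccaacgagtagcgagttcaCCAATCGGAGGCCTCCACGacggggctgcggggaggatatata
Hsp90b1: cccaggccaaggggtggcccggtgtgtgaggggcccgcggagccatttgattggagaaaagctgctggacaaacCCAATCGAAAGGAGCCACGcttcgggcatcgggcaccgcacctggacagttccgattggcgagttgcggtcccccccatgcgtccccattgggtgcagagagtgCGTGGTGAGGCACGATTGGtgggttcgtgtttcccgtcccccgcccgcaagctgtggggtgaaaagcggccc
Dnajc3: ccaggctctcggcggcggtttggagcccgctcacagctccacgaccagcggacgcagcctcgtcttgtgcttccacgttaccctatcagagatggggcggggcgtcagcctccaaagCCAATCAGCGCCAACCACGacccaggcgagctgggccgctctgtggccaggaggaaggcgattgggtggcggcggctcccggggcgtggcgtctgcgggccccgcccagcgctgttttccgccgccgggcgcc

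Hspa5 encodes BiP, the HSP70 of the endoplasmic reticulum. It was at 559, 534, 554, 502 and 446 FPKM in CON1 to CON5 and at 251, 263, 307, 284 and 328 FPKM in HG1 to HG5. The highest HG library stayed below the lowest CON library. The mean was 1.81-fold lower, at a log2 fold change of -0.86 (SE 0.0792, adjusted p = 9.76e-06), and -0.83 without CON3. Hsp90b1, the HSP90 of the lumen, was at 382, 377, 371, 348 and 323 FPKM in CON1 to CON5 and at 240, 237, 276, 274 and 280 FPKM in HG1 to HG5, again without overlap (log2 fold change -0.46, SE 0.0614, adjusted p = 0.000125). Hsp90b1 holds 2 matches to the element, at bases -176 to -158 and, in the opposite orientation, at -72 to -54 from its start, whereas Hspa5 holds 1 at -43 to -25 and Dnajc3 1 at -133 to -115.

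J proteins of the lumen were lower as well. Dnajc3, a cochaperone of BiP that also inhibits the kinase PERK, was at 31.4, 29.3, 32.0, 32.3 and 30.4 FPKM in CON1 to CON5 and at 18.9, 19.5, 24.2, 16.5 and 21.6 FPKM in HG1 to HG5 (log2 fold change -0.63, SE 0.0832, adjusted p = 0.000116). Dnajb9, which recruits BiP to misfolded proteins and to the sensor IRE1, was at 7.996 to 10.4 FPKM in CON and 4.77 to 6.21 FPKM in HG (log2 fold change -0.71, SE 0.0870, adjusted p = 7.71e-05). Dnajb11, which brings unfolded clients to BiP, was at 44.5 to 54.4 FPKM in CON and 34.2 to 41.8 FPKM in HG (log2 fold change -0.36, SE 0.0619, adjusted p = 0.000676). None of these 3 had overlapping groups. Dnajc25 fell by 0.18 (adjusted p = 0.0322), a call that was lost without CON1, CON3, CON5, HG2, HG3, HG4 or HG5 (adjusted p 0.0586 to 0.0763). Dnajc10, a disulfide reductase that assists degradation, averaged 22.05 ± 0.827 FPKM in the CON libraries and 22.01 ± 0.792 FPKM in the HG libraries, with a 95% interval of the log2 fold change from -0.09 to 0.09. The membrane J proteins Dnajb12 and Dnajb14 and the members Dnajc1 and Dnajc16 did not pass the test, with log2 fold changes from -0.12 to 0.11. By the GO terms in the deposited table, 5 of the 6 members of the endoplasmic reticulum lumen were lower (83.3%), with Dnajc10 as the exception. Of the 7 members these terms put at its membrane, 3 were lower (42.9%), against 11.8% of all genes. Dnajc14 and Dnajc18, among these 7, are not in the set of 11, and neither passed the test.

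Mitochondrial chaperones numbered 10, with 5 lower, against 11.8% of all genes, 0 higher and a median of -0.15.  Hspa9, the HSP70 of the matrix, was at 271, 278, 279, 269 and 271 FPKM in CON1 to CON5 and at 275, 257, 257, 287 and 272 FPKM in HG1 to HG5, so the CON values lay within the HG range. Its log2 fold change was -0.02 (95% interval -0.10 to 0.06, adjusted p = 0.670), and it changed sign with quantile normalization.

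The chaperonin Hspd1 and its lid Hspe1, which form the folding chamber of the matrix, are encoded by adjacent genes. Hspd1 was at 343 to 350 FPKM in CON and 307 to 362 FPKM in HG (log2 fold change -0.09, 95% interval -0.18 to -0.000494, adjusted p = 0.102). It passed the test without HG4, at -0.13 (adjusted p = 0.00672), and with median-of-ratios scaling, at -0.18 (adjusted p = 0.0127). Hspe1 was at 337 to 381 FPKM in CON and 273 to 334 FPKM in HG, without overlap (log2 fold change -0.23, SE 0.0542, adjusted p = 0.00470). Whether the pair differed from each other was not tested.

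Among the J proteins of this compartment, Dnaja3, which works with Hspa9, was at 55.2 to 61.6 FPKM in CON and 46.8 to 50.0 FPKM in HG (log2 fold change -0.23, SE 0.0380, adjusted p = 0.000558). Dnajc15, a J protein of the import motor at the inner membrane, was at 13.4 to 15.8 FPKM in CON and 11.4 to 12.7 FPKM in HG (log2 fold change -0.25, SE 0.0520, adjusted p = 0.00262). Dnajc19, its relative at the import motor, had a log2 fold change of -0.11 with a 95% interval of -0.24 to 0.02. Dnajc28 was at 5.28 to 6.64 FPKM in CON and 3.48 to 4.33 FPKM in HG (log2 fold change -0.60, SE 0.0806, adjusted p = 0.000144). Dnajc4 fell by 0.19 (adjusted p = 0.0306), and its call was lost without CON1, CON3, CON4, CON5, HG2 or HG3 (adjusted p 0.05001 to 0.0675) and with voom on recovered reads (adjusted p = 0.0646). Dnajc11 and Dnajc30 did not pass, with log2 fold changes of -0.03 and 0.01.

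Of the 7 small heat shock proteins tested, 4 were lower (57.1%, against 11.8% of all genes) and 0 higher, and together they held 0.457 ± 0.0202% of the CON total and 0.382 ± 0.0251% of the HG total (SD, n = 5). Hspb7, a cardiac form that interacts with filamin C and the most abundant member, was at 1170, 1110, 1223, 1123 and 1141 FPKM in CON1 to CON5 and at 868, 950, 828, 999 and 835 FPKM in HG1 to HG5. No values of the groups overlapped, and the log2 fold change was -0.37 (SE 0.0558, adjusted p = 0.000317). Hspb6, a muscle form known for a phosphorylation site of protein kinase A, was at 154, 126, 128, 112 and 137 FPKM in CON1 to CON5 and at 69.9, 80.5, 58.1, 73.9 and 63.3 FPKM in HG1 to HG5. It was 1.90-fold lower in HG, at a log2 fold change of -0.93 (SE 0.0934, adjusted p = 1.85e-05), and -0.94 without CON3. Of all members only Hspa1b had a more negative value.

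Hspb8, which works with Bag3 in the removal of damaged filament proteins, was at 52.7 to 59.9 FPKM in CON and 40.1 to 47.8 FPKM in HG (log2 fold change -0.36, SE 0.0534, adjusted p = 0.000267). Its partner Bag3, from the list of other cochaperones, was at 54.3, 47.8, 54.8, 46.4 and 46.7 FPKM in CON1 to CON5 and at 28.9, 30.7, 29.2, 29.8 and 25.9 FPKM in HG1 to HG5, a log2 fold change of -0.79 (SE 0.0612, adjusted p = 2.88e-06). Both partners were therefore lower in every HG library than in any CON library. Hspb2 and Hspb3 form a complex of muscle: Hspb2 fell by 0.15 (adjusted p = 0.0238), a call lost without CON1, CON3, HG3 or HG5 (adjusted p 0.0520 to 0.0607) and with quantile normalization, and Hspb3 had a log2 fold change of -0.09 (95% interval -0.20 to 0.02). Hspb1, the widely expressed form, was at 441 to 500 FPKM in CON and 354 to 469 FPKM in HG (log2 fold change -0.12, 95% interval -0.28 to 0.03, adjusted p = 0.182). Hspb11, which RefSeq names Ift25 after its role in cilia, averaged 4.09 ± 0.643 FPKM in the CON libraries and 4.60 ± 0.789 FPKM in the HG libraries.

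Cardiomyocyte markers moved with these muscle members. Of the 10 markers, 8 were lower (80%, against 11.8% of all genes), 1 (Nppa) was higher and none was at 0. Their median log2 fold change was -0.40. The groups did not overlap in 9 of the 10, against 27.4% of all genes, and 8 of these 9 were lower. The summed ranges given above overlapped, but Actc1, which did not pass, averaged 10911 FPKM of a summed mean of 22359 FPKM in CON. Smooth muscle markers, whose cells also make Hspb6, summed to 778 to 902 FPKM in CON and 989 to 1242 FPKM in HG, with 2 of 7 lower, 3 higher and none at 0. The part of either in the values of the small heat shock proteins was not tested.

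J proteins of type A and B carry clients to HSP70, most of them in the cytosol. All 4 type A members were tested and 3 were lower, against 11.8% of all genes, Dnaja3 of the mitochondria among them, at a median of -0.28. Dnaja4 was at 32.4, 41.9, 46.3, 29.7 and 32.0 FPKM in CON1 to CON5 and at 20.6, 23.8, 20.7, 20.7 and 21.7 FPKM in HG1 to HG5 (log2 fold change -0.74, SE 0.109, adjusted p = 0.000262). CON2 and CON3 were high within CON, yet all of CON lay above HG, and without CON3 the value was -0.65. Dnaja1 was at 124 to 142 FPKM in CON and 98.5 to 115 FPKM in HG (log2 fold change -0.33, SE 0.0487, adjusted p = 0.000267), while Dnaja2 was at 48.8 ± 1.45 and 50.2 ± 3.19 FPKM (log2 fold change 0.04, 95% interval -0.06 to 0.14).

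Of the 11 type B members, 5 were lower and 1 was higher (45.5% and 9.09%, against 11.8% and 28.4% of all genes), with a median of 0.02. Dnajb2, which binds ubiquitin chains and is named here after its values were seen, was at 27.3, 28.1, 27.6, 28.0 and 28.3 FPKM in CON1 to CON5 and at 20.6, 19.7, 18.4, 18.9 and 19.3 FPKM in HG1 to HG5. The groups were far apart, and the log2 fold change of -0.52 (SE 0.0381, adjusted p = 1.98e-06) had the smallest adjusted p of all members. Dnajb1, the canonical heat-inducible J protein, was at 26.0 to 34.7 FPKM in CON and 23.0 to 26.4 FPKM in HG, where CON5 alone, at 26.0, fell within the HG range (log2 fold change -0.38, SE 0.0756, adjusted p = 0.00201). Dnajb4 was at 26.4 to 34.1 FPKM in CON and 22.4 to 26.7 FPKM in HG (log2 fold change -0.35, SE 0.0704, adjusted p = 0.00188). Dnajb5 and Dnajb6, the latter known as a suppressor of aggregation whose variants cause muscle disease, had log2 fold changes of 0.03 and 0.02, and both signs flipped with median-of-ratios and quantile scaling. Dnajb3 was the higher one, at 2.57 to 4.40 FPKM in CON and 3.96 to 5.93 FPKM in HG (log2 fold change 0.39, SE 0.145, adjusted p = 0.0489). This call was lost without CON1, CON3, CON4, HG1, HG2, HG3 or HG5 (adjusted p 0.0594 to 0.116), and with median-of-ratios or quantile scaling. No filter, removal of hemoglobin genes, no trend, a Y chromosome covariate and voom on recovered reads each ended it too (adjusted p 0.0603 to 0.0722). The call thus held in 8 of 22 alternatives. Dnajb13 was at 0.185 ± 0.0516 and 0.305 ± 0.0857 FPKM (adjusted p = 0.0653).

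Type C members share only the J domain. A set of 11 gathers those of the ribosome, nucleus and RNA with others of mixed or unclear place, among them Dnajc14 and Dnajc18, which the deposited GO terms put at the endoplasmic reticulum membrane. In it 0 were lower and 4 were higher, at a median of 0.18, and the 36.4% that were higher are near the 28.4% of all genes. Dnajc2, which forms the ribosome-associated complex with Hspa14 on nascent chains, was at 21.3, 19.5, 19.97, 20.2 and 22.1 FPKM in CON1 to CON5 and at 25.3, 23.5, 23.9, 25.0 and 24.8 FPKM in HG1 to HG5. All of HG lay above CON, at a log2 fold change of 0.25 (SE 0.0429, adjusted p = 0.000730). Dnajc8, a protein of the spliceosome, was at 49.7 to 52.0 FPKM in CON and 54.8 to 61.8 FPKM in HG (log2 fold change 0.20, adjusted p = 0.00182). Dnajc9, a chaperone of histones, was at 53.1 to 59.6 FPKM in CON and 62.5 to 71.7 FPKM in HG (log2 fold change 0.20, adjusted p = 0.00396). With median-of-ratios scaling Dnajc8 and Dnajc9 kept their sign at 0.11 each but missed the threshold (adjusted p = 0.0525 and 0.114), and Dnajc2 passed at 0.16 (adjusted p = 0.0168). Dnajc22, a membrane protein, had the largest increase of all members, from 0.973 to 1.40 FPKM in CON to 1.69 to 2.34 FPKM in HG (log2 fold change 0.73, SE 0.119, adjusted p = 0.000517). Its values rest on 31 to 43 reads in a CON library and 51 to 71 reads in an HG library. The 7 others of this set, among them Dnajc7, Dnajc21 and the diphthamide factor Dnajc24, had log2 fold changes from -0.13 to 0.22 and did not pass. None of the 3 vesicle members tested passed: Dnajc5, the synaptic vesicle protein CSP, was at 29.1 ± 2.43 and 28.5 ± 1.01 FPKM, and Dnajc13 and Dnajc27 had log2 fold changes of 0.08 and 0.01.

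The members not yet described are Hspa1l, Hspa2, Hspa12a, Hspa12b and Hspbp1, of which none passed. Hspa1l, a relative of Hspa1b expressed mainly in testis, averaged 0.473 ± 0.124 FPKM in the CON libraries and 0.311 ± 0.0530 FPKM in the HG libraries (log2 fold change -0.46, adjusted p = 0.0545). For the other 4 the log2 fold change lay between -0.13 and -0.01. Hspbp1, a nucleotide exchange factor taken up by its symbol, is not a small heat shock protein.

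A set of 12 members that heat shock factor 1 is known to drive cut across these groups: 9 were lower, against 11.8% of all genes, 0 were higher, and the median log2 fold change was -0.34. The 3 that did not pass were Hsp90ab1, Hspb1 and Hspd1. Heat shock elements were searched in the 250 bases upstream as 2 units, GAA and TTC or TTC and GAA, with 2 bases of any kind between them, which reads the same on both strands. A longer form of 3 such units in turn, each 2 bases from the next, contains the shorter one. The short form stood in 14 of the 53 members, 26.4%, and in 13.5% of all 33469 promoters. Of these 14 members 7 were lower, 0 higher and 7 did not pass, while of all 53 members 21 were lower. Whether the element goes with a lower level was not tested. The long form stood in 4 members (Hspa8, Hspd1, Hspe1 and Hsph1), 7.55%, against 0.663% of all promoters, and 3 of the 4 were lower. The region upstream of Hspd1 and Hspe1 is shared by both, so theirs may be the same letters. For Hspa8, Hsph1 and Hspe1 the sequences from RefSeq (GRCr8) are printed, since these combine the long form with a lower level in HG, and capitals mark the heat shock elements. Hspa8 lies at chr8:50080264-50080513, forward strand, Hsph1 at chr12:10427118-10427367, forward strand, and Hspe1 at chr9:64084077-64084326, forward strand.
Hspa8: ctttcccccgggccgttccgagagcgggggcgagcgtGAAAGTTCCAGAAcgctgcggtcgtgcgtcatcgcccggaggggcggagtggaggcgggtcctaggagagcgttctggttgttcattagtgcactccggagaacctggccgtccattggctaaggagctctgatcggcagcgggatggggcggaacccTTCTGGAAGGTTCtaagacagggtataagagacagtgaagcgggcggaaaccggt
Hsph1: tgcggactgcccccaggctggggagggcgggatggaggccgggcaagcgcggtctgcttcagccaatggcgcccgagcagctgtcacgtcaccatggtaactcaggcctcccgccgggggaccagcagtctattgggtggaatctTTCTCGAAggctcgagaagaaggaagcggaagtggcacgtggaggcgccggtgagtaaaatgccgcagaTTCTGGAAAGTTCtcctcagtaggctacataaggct
Hspe1: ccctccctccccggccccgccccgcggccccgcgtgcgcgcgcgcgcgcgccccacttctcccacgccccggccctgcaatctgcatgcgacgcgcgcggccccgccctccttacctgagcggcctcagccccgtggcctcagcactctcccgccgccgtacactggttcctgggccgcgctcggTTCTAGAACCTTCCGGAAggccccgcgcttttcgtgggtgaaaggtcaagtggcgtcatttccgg

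Hspa8 holds the long form at bases -213 to -201 and again at -55 to -43, Hsph1 holds it at -36 to -24 with a short form at -105 to -98, and in Hspe1 overlapping matches span -65 to -48. Hspb6, whose log2 fold change was -0.93, holds the short form at -239 to -232 and at -149 to -142. Matches also stood in members that did not pass: Hspb1 holds the short form at -129 to -122 and at -109 to -102, and Hspa9 at -84 to -77. Besides Hspd1, the other members with the short form were Dnaja1, Dnajb1, Dnajb6, Dnajc18, Dnajc27, Hspa2 and Hspb8. The 13 members without a RefSeq promoter were not searched, and only exact matches in 250 bases were counted. A member not named here may therefore still hold the element.

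**Figure D4:**
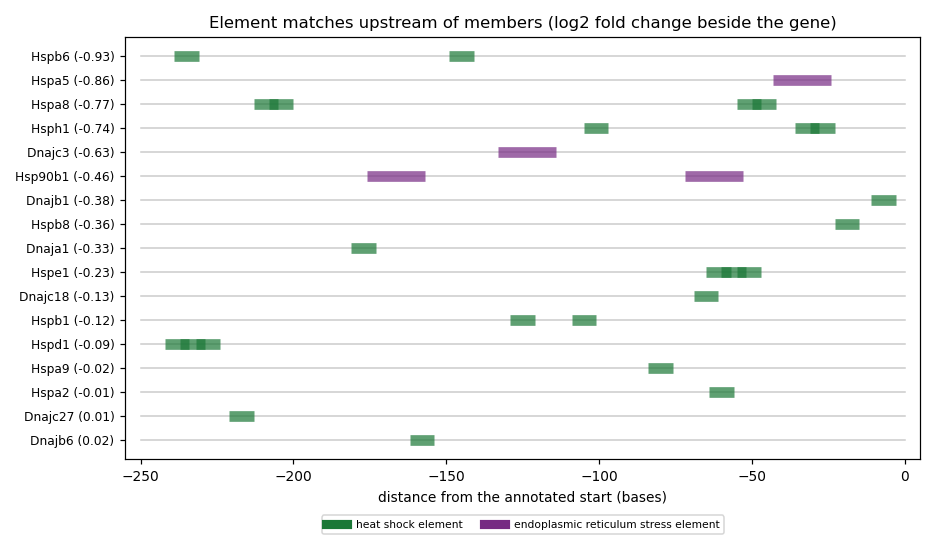
Positions of matches to the heat shock element (green, short form, overlapping copies drawn darker) and the endoplasmic reticulum stress element (purple) in the 250 bases upstream of the annotated start of the members that hold either, as distance from the start in bases, with the log2 fold change (HG minus CON) beside each symbol and the most negative at the top. Purple matches stand in Hspa5, Dnajc3 and Hsp90b1, all lower, and green ones in members from -0.93 to 0.02.

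Genes outside the members that work with them were taken from 9 lists, whose counts stand against the 11.8% lower and 28.4% higher of all genes. Among endoplasmic reticulum folding genes, 13 of 21 were lower (61.9%) and 2 higher (9.52%), with a median log2 fold change of -0.24. Sdf2l1, a partner of lumenal J proteins, was at 29.8, 26.3, 33.3, 26.6 and 28.5 FPKM in CON1 to CON5 and at 14.6, 14.4, 13.8, 14.8 and 11.7 FPKM in HG1 to HG5 (log2 fold change -1.05, SE 0.0768, adjusted p = 1.89e-06). Creld2, a secreted stress protein, fell by 0.84 on the log2 scale (adjusted p = 7.35e-06), and Hyou1, the HSP110 of the lumen, named here after its values were seen, fell by 0.83 (adjusted p = 2.95e-06). Sec63, the J protein of the translocon, and Edem1, a degradation factor, were higher by 0.21 and 0.13 (adjusted p = 0.00618 and 0.0374). Both calls were lost with median-of-ratios scaling, at 0.12 for Sec63 (adjusted p = 0.0632) and 0.04 for Edem1 (adjusted p = 0.582), and that of Edem1 also with quantile normalization. The endoplasmic reticulum stress element stood in 4 of 18 promoters of this list, in Canx, Calr, Creld2 and Ero1b. Of these the first 3 were lower, while of all 18 genes 11 were lower.

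For the sensors and factors of the unfolded protein response, 2 of 15 were lower (13.3%) and 6 higher (40%) at a median of 0.11, near the shares and the median of 0.09 of all genes. Xbp1, whose spliced form drives chaperone genes, was at 73.5, 74.2, 72.8, 67.8 and 58.9 FPKM in CON1 to CON5 and at 45.1, 49.6, 52.2, 46.4 and 48.3 FPKM in HG1 to HG5 (log2 fold change -0.52, SE 0.0639, adjusted p = 7.59e-05). Splicing cannot be read from gene levels. Ddit3 fell by 0.35 (adjusted p = 0.0126). Atf4, the factor translated under the integrated stress response, was at 99.4, 98.7, 99.1, 95.8 and 96.6 FPKM in CON1 to CON5 and at 120, 119, 116, 126 and 121 FPKM in HG1 to HG5 (log2 fold change 0.30, SE 0.0308, adjusted p = 2.33e-05). Chac1, a glutathione-degrading target of Atf4, rose by 1.09 (SE 0.306, adjusted p = 0.0135) from a mean of 0.474 FPKM. The log2 fold change of Atf6 was 0.07 (adjusted p = 0.343), a gene named here after its values were seen.

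None of the 6 heat shock factor genes and their controls passed the test. Hsf1 averaged 18.7 ± 1.85 FPKM in the CON libraries and 18.5 ± 0.861 FPKM in the HG libraries, with a 95% interval of the log2 fold change from -0.15 to 0.14, and Hsf2 was at 20.2 ± 0.471 and 21.1 ± 1.51 FPKM; both are named after their values were seen, and their activity is not measured by RNA. Among 26 cochaperones without a member symbol, 9 were lower (34.6%) and 3 higher (11.5%), at a median of -0.05. Besides Bag3, the lower ones included Cdc37l1, an HSP90 cochaperone (log2 fold change -0.59, adjusted p = 0.000368), and the higher ones Hspbap1 at 0.43 (adjusted p = 0.00271) and Bag4 at 0.24 (adjusted p = 0.0364), whose call was lost with median-of-ratios or quantile scaling.

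Of 4 genes listed as myosin chaperones, 3 were lower, Cryab among them. Cryab was counted in this list although it is a small heat shock protein by structure, which lacks the symbol of the members. It was at 1108, 1138, 1117, 998 and 1080 FPKM in CON1 to CON5 and at 657, 635, 610, 738 and 630 FPKM in HG1 to HG5, without overlap (log2 fold change -0.74, SE 0.0547, adjusted p = 2.17e-06). Smyd1, a methyltransferase that helps myosin fold in muscle, fell by 0.24 (adjusted p = 0.000770). For the CCT chaperonin and prefoldin, which fold actin and tubulin, 1 of 13 was lower (7.69%) and 3 were higher (23.1%). These were small differences, with Cct3 at -0.11 (adjusted p = 0.0213), Pfdn4 at 0.28 (adjusted p = 0.00401) and Pfdn2 at 0.13 (adjusted p = 0.0238), which did not pass with median-of-ratios or quantile scaling.

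Mitochondrial import and protein quality genes numbered 17, with 6 lower (35.3%) and 3 higher (17.6%) at a median of -0.01. Grpel1, the nucleotide exchange factor of Hspa9, fell by 0.33 (SE 0.0352, adjusted p = 2.83e-05), and the protease subunit Spg7 by 0.34 (adjusted p = 0.000657). Hscb, the J protein of iron-sulfur cluster transfer, rose by 0.42 (adjusted p = 0.00225), and the protease Htra2 by 0.30 (adjusted p = 0.000165). Immediate early genes, which respond within minutes to many stimuli, were lower in 4 of 22 (18.2%) and higher in 2 (9.09%), with a median of -0.05, and included Klf2 at -0.49 (adjusted p = 0.0102), Dusp1 at -0.45 (adjusted p = 0.0236), Ier2 at 0.26 (adjusted p = 0.00709) and Ier5 at 0.17 (adjusted p = 0.0268). With median-of-ratios scaling Ier2 and Ier5 did not pass (adjusted p = 0.0755 and 0.306). Both cold-inducible RNA-binding proteins were higher: Cirbp was at 20.3 to 26.7 FPKM in CON and 36.3 to 43.9 FPKM in HG (log2 fold change 0.75, SE 0.0788, adjusted p = 2.39e-05), and Rbm3 was at 141 to 147 FPKM in CON and 190 to 251 FPKM in HG (log2 fold change 0.53, SE 0.0658, adjusted p = 7.88e-05). The part of these lists in the members' values was not tested.

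**Figure D5:**
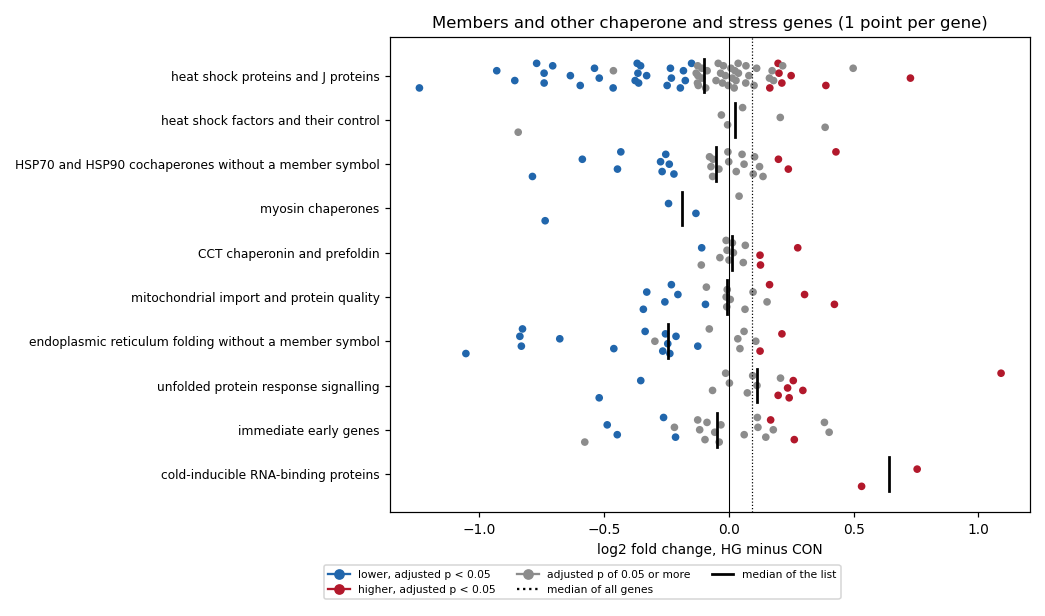
Log2 fold change (HG minus CON, horizontal axis) of the members (top row) and of the genes of 9 other lists, 1 point per gene coloured by the test, with a bar at each list's median and a dotted line at the median of all genes. The endoplasmic reticulum folding list has its median at -0.24, the unfolded protein response list at 0.11 and the members at -0.10, beside 0.09 for all genes.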

How the data were processed

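Hearts of rat fetuses (embryonic day 19.5) gave 10 mRNA libraries, 5 CON and 5 HG, made from TRIzol RNA with a stranded mRNA kit. The authors deposited FPKM per gene, reads divided by gene length and library size, and the submitters' processing notes name fastp, HISAT2, HTSeq, R 3.2.0 and the build mRatBN7.2, with the annotation not given in the sources used here. The study's methods speak of pooled RNA, yet the columns differ from library to library and were used as separate libraries. All per-sample columns were used (0 unused).

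FPKM values were whole multiples of the value of 1 read (within 0.05 read) in 100% of the 18025 genes, which gave 16676572 to 19114291 reads per library.

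Genes that averaged 0.1 FPKM or more were put on the scale log2(FPKM + 0.1) and compared with limma 3.58.1 in R 4.3.3, a linear model without covariate and with a trend on expression, and p-values were Benjamini-Hochberg adjusted over all 14542 genes. Fold changes on this scale understate those of genes with low FPKM. The methods of the study name DESeq, which takes counts and was not used. The model was tested on simulated data. Tables and plots were made with Python 3.11.15, numpy 2.4.6, pandas 2.3.3 and matplotlib 3.10.9.

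Members and lists were chosen with earlier results of these data known, so counts are given against the shares of all genes and with no test over a list. Members named with values were DEGs, among those that passed the 8 most increased and the 8 most decreased, and a fixed list of main chaperones, and from each list up to 4 genes, the 2 with the largest change in each direction among those that passed. Others are marked or only complete a group, and Dnajb2, Dnajc28, Hspa4l, Dnajc4 and Dnajc25 were chosen after their values were seen. Promoters were matched by NCBI Gene identifier to RefSeq (GRCr8), for 53 of the 66 members. As alternatives, the pseudocount was set to 1 and 0.01, the filter to none and to 1 FPKM, scaling to median-of-ratios and quantile, and the DEG limit to a log2 fold change of 0.5. Others were voom on recovered reads, the replicate number as a block, array weights, a fit without the trend, a covariate from Y chromosome genes, removal of hemoglobin genes, and each library left out. Same-numbered CON and HG libraries did not deviate together (correlations of deviations -0.126 to 0.108).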

Additional observations from a re-analysis of the deposited data

Results flagged for a closer look

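In 5 cases 1 library lay far from the other 4 of its group, among 136 groups of 5 examined over 68 genes, where chance alone sets apart about 1 in 20 groups. Dnaja3 was at 46.8 FPKM in HG5 and at 49.3 to 50.0 FPKM in the other HG libraries. Dnajb1 was at 26.0 FPKM in CON5 and at 33.2 to 34.7 FPKM in the rest of CON. Dnajb6 was at 20.8 FPKM in CON2, above 18.4 to 19.0 FPKM in the other CON libraries, and at 17.8 FPKM in HG2, below 19.8 to 20.2 FPKM in the other HG libraries. Dnajc25 was at 7.67 FPKM in HG1 and at 6.48 to 6.80 FPKM in the remaining HG libraries.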

How the results depend on the processing

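Of the 25 lower members, 22 kept the call in all 22 alternatives (each library left out among them), with Dnajc4, Dnajc25 and Hspb2 as exceptions, and of the 7 higher ones 3 did, Dnajc2, Hspa13 and Dnajc22, while Hspa14, Dnajc8, Dnajc9 and Dnajb3 lost it in at least 1. With each library left out, 29 to 33 members were called, 22 to 25 lower and 6 to 8 higher. The replicate number as a block gave 31 called members, 24 lower and 7 higher, with the call of Dnajc4 lost (adjusted p = 0.0541), and in the other lists it ended the calls of Cct3, Edem1 and Ier5 (adjusted p 0.0522 to 0.0989). The labels do not say whether the numbers pair the libraries, and the weak correlations of their deviations cannot settle it. Median-of-ratios scaling left 3 higher members, and 9 higher genes in the other lists against 21, ending among the named ones the calls of Bag4, Pfdn2, Sec63, Edem1, Ier2 and Ier5, of which quantile normalization ended those of Bag4, Pfdn2, Edem1 and Ier5. DEGs among members were 1, or 0 with a pseudocount of 1, 2 with median-of-ratios scaling and 12 at a log2 fold change limit of 0.5, which lowers the limit by construction. Signs reversed in members that did not pass: Hsp90ab1 (-0.0534), Dnajb5 (-0.0619) and Dnajb6 (-0.0661) with median-of-ratios scaling, and Hspa9 (0.0684), Dnajb5 (-0.0091) and Dnajb6 (-0.0544) with quantile normalization. With libraries left out, Dnajb5 ranged from -0.0114 (without HG1) to 0.0636 and Dnajc5 from -0.0758 to 0.0079 (without CON4). Hsp90ab1 was called higher with quantile normalization, at 0.09 (adjusted p = 0.0258). In the other lists, 1 library left out ended calls of Bag4 (CON1, CON3, CON4, HG1, HG2 or HG5), Cct3 (CON3 or HG3), Pfdn2 (CON1, CON3, CON4 or HG2), Edem1 (all but CON2, CON5 and HG2), Dusp1 (CON3, CON4, CON5 or HG3) and Ier5 (CON1, CON2, CON4, HG1, HG2 or HG3), at adjusted p of 0.0502 to 0.0929. Apart from the limit of 0.5, the cause was not tested. Depth limits Hspa1b, at 36 to 52 reads in HG, the 3 members below the minimum and other members with few reads. Dnajc22 had 31 to 43 reads in CON and 51 to 71 in HG, and Hspa4l 71 to 97 and 39 to 70. Hspa1l had 16 to 30 and 12 to 19, and Dnajb13 6 to 11 and 9 to 18.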
